A study of Mus musculus with 12 samples.

Results

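The comparison described here is of myofibroblasts from mice with lung metastasis (M-MyoF) against myofibroblasts from normal mice (N-MyoF), 3 libraries each, chosen by the sample titles from a series of 12 libraries. The other 6 libraries are matrix fibroblasts (MF in the labels) from the same kinds of mice (N-MF and M-MF, 3 each). Every sample is labelled as lung fibroblasts. The series concerns breast cancer spread; its strain, sex, age, tumour model and sorting gates are not given in the sources. No label says whether the 3 libraries of a group came from separate mice, so the p-values below speak to the spread among these preparations, and that spread may be technical. The values are FPKM (fragments per kilobase of transcript, scaled to the mapped fragments of the library), so they are per length and can be set side by side between genes. Of 20606 genes in the table, the 13300 with at least 1 FPKM in at least 3 of the 12 libraries were tested.

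Myofibroblasts are the contractile, matrix-laying fibroblasts of the lung. In the normal organ they sit around alveolar ducts and at the tips of septa, and they are known by actins and other contractile proteins, by elastic fibre components and by receptors and targets of the Hedgehog, TGF-beta and BMP pathways. In lungs that carry metastases, fibroblasts are known to take up matrix-remodelling, inflammatory and antigen-presenting programmes, and the question stated for the series is how fibroblast subgroups contribute to the outgrowth of tumour cells in the lung.

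The MyoF libraries held 12334 to 12370 genes at 1 FPKM or more in N-MyoF and 12655 to 12682 in M-MyoF. Their depth, estimated from the smallest steps between low FPKM values, was 15.1 to 16.8 in units of 1e6 fragments. Libraries of a group lay close together: among genes of 100 FPKM or more the median coefficient of variation was 1.75% in N-MyoF and 1.83% in M-MyoF, and the squared differences within either MyoF group were 0.77 to 0.88 times those expected from counting error for genes of 5 to 50 FPKM, 1.15 to 1.45 times for 50 to 200 FPKM and 2.9 to 3.62 times for 200 FPKM or more. With so small a spread, 10734 genes (80.7%) passed an adjusted p under 0.05, 49.1% of those tested being higher and 31.6% lower, and the values of the 2 groups did not overlap for 10934 (82.2%). Statistical significance therefore separates few genes from the rest, and the counts below rest on the size of the change as well. A gene is said to have risen or fallen where its adjusted p was under 0.05 and its change was at least 2-fold on the log2(FPKM + 1) scale. All log2 changes, and all folds, are on that scale, which understates the change of genes near 0.

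By that rule 1510 genes rose (11.4% of those tested) and 431 fell (3.24%) in M-MyoF. At least 4-fold changes were seen for 478 genes that rose and 58 that fell, and at least 16-fold changes for 68 and 2. For 1939 of the 1941 genes called, all 3 values of one group lay above all 3 of the other. The median log2 change over all genes tested was 0.11 (-0.05 with equal sums, -0.03 with median-ratio scaling and -0.10 with quantile normalization), and the FPKM of a library summed to 537057 to 541506 in N-MyoF and 614237 to 618478 in M-MyoF. Rises made up 77.8% of the calls with the deposited scale, 65.1% after every library was set to an equal sum, 67.9% after median-ratio scaling and 60.2% after quantile normalization. The largest rises were of Ngp, Ifitm6, Retnla, S100a8, Retnlg, Cstdc5, Stfa2, Lcn2, S100a9, Cd177, Prl2c3, Camp, Padi4, Slpi and Wfdc17, and the largest falls of Glycam1, Cytl1, Chad, Nppa, Cnmd, Otor, Ucma, Myl7, Gfra3, Myl4, Tnni3, Myoc, Nr4a2, Snorc and Mia, counting named genes whose higher group averaged 5 FPKM or more. Prl2c3, a proliferin family gene with close copies, was listed at 0 in each N-MyoF library and measured 64.8, 64 and 66.7 FPKM in M-MyoF. Many of the others are genes that cells other than fibroblasts are known to make.

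**Figure D1:**
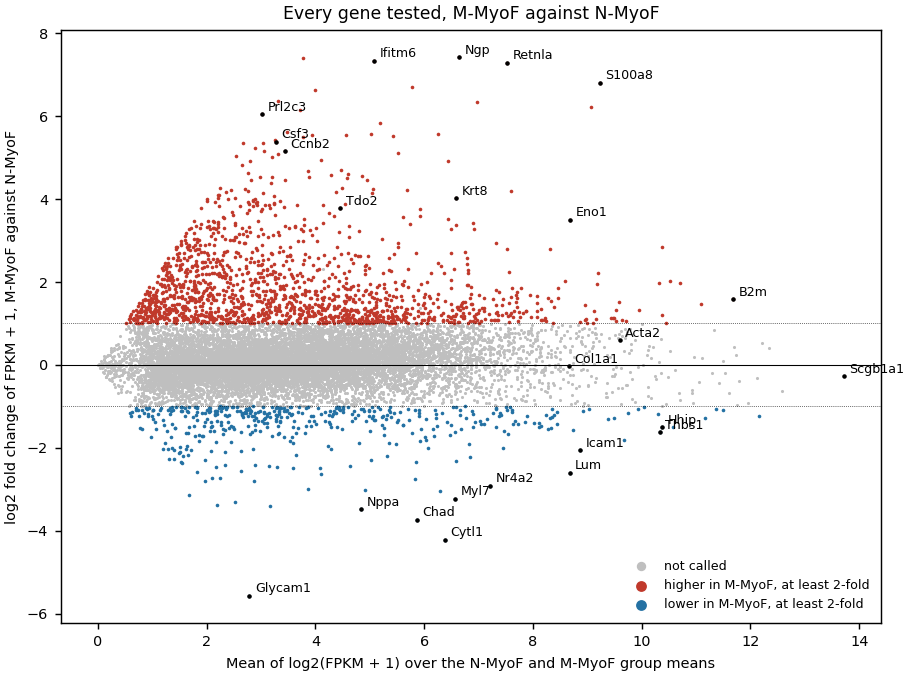
Each point is one of the 13300 genes tested, placed by its mean log2(FPKM + 1) over the MyoF groups (horizontal axis) and its log2 fold change of FPKM + 1 in M-MyoF against N-MyoF (vertical axis); dotted lines mark 2-fold. The 1510 genes that rose (red) reach farther from 0 than the 431 that fell (blue), and Acta2 and Col1a1 lie between the dotted lines.

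Markers of other cells were present in both groups and differed between them. Scgb1a1, the club cell secretoglobin and the gene with the highest FPKM in these libraries, measured 14574, 15053 and 14795 FPKM in N-MyoF and 11934, 12537 and 12367 in M-MyoF. The surfactant gene Sftpc averaged 4051 ± 44 and 3103 ± 73 FPKM; averages are mean ± SD of 3 libraries, N-MyoF first, here and below. Ptprc, which encodes the pan-leukocyte antigen CD45, measured 3.83, 3.69 and 3.87 FPKM in N-MyoF and 9.65, 9.17 and 9.74 in M-MyoF, a log2 change of 1.13 ± 0.049 (SE, adjusted p = 1.97e-10). The fibroblast gene Pdgfra was low, at 9.65, 9.42 and 9.04 FPKM in N-MyoF and 10.03, 9.78 and 9.62 in M-MyoF, while the contractile genes Acta2 and Tagln were high. Of 12 common fibroblast genes 3 rose (Fn1, Thy1 and Vim) and 1 fell (Lum), with a median log2 change of 0.03. The libraries carry the contractile markers of their label together with abundant epithelial transcripts. In bulk RNA, fewer cells of a type and less RNA per cell cannot be told apart.

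Neutrophil transcripts showed the largest shift of any list. All 21 tested neutrophil markers rose (1 of the 22 listed was below the filter), with a median log2 change of 5.22. Their summed FPKM went from 198 to 215 in the N-MyoF libraries to 14411 to 14744 in the M-MyoF libraries. S100a8 and S100a9, the subunits of calprotectin, led by level: S100a8 (chromosome 3, 90669071 to 90670034, GRCm38.p6) measured 53.3, 59.6 and 53.8 FPKM in N-MyoF and 6558, 6114 and 6303 in M-MyoF. S100a9 measured 60.6, 62.7 and 59.7 FPKM in N-MyoF and 4556, 4645 and 4714 in M-MyoF. Ngp, a granule protein, measured 6.24, 6.66 and 6.92 FPKM in N-MyoF and 1330.2, 1302 and 1283 in M-MyoF, a log2 change of 7.42 ± 0.074 (SE, adjusted p = 2.55e-16). Each M-MyoF library lay far above each N-MyoF library for these genes. Ly6g, the surface antigen by which mouse neutrophils are sorted, measured 0.14, 0.36 and 0.14 FPKM in N-MyoF and 43.1, 44.95 and 44.5 in M-MyoF. Ifitm6, an interferon-induced transmembrane family member, measured 2.34, 1.3 and 1.41 FPKM in N-MyoF and 429, 424 and 432 in M-MyoF. Stefin genes rose with them, among them Stfa2, at 0, 0.27 and 0 FPKM in N-MyoF and 84.99, 90.7 and 91.04 in M-MyoF, though close copies of this cluster share reads, so the split between its members is uncertain. Ly6g and Stfa2 lay under 1 FPKM in each N-MyoF library and passed the filter only through other groups, so only a rise could be called for them. Granule enzymes of early neutrophil precursors were lower in level but also rose: Mpo averaged 1.13 ± 0.19 and 5.68 ± 0.24 FPKM, Elane 0.437 ± 0.17 and 5.66 ± 0.20 FPKM and Prtn3 0.473 ± 0.049 and 5.48 ± 0.11 FPKM.

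Markers of other leukocytes moved less uniformly. Of 10 common leukocyte genes 9 rose, with a median log2 change of 2.07, and their sum went from 109 to 127 FPKM in N-MyoF to 531 to 547 FPKM in M-MyoF. Cd52, a surface peptide of lymphocytes and granulocytes, measured 7.71, 10.96 and 6.06 FPKM in N-MyoF and 83.6, 82.3 and 85.2 in M-MyoF. Coro1a, an actin-binding protein of leukocytes, measured 12.3, 11.2 and 11.1 FPKM in N-MyoF and 76.5, 79.02 and 73.98 in M-MyoF. Of 13 tested macrophage and monocyte markers 2 rose and 4 fell (2 with a pseudocount of 5), with a median of -0.42. Itgam, the integrin alpha M chain shared by neutrophils and macrophages, measured 0.74, 0.78 and 0.71 FPKM in N-MyoF and 17.8, 18 and 17.5 in M-MyoF. Ear2, an eosinophil-type ribonuclease of alveolar macrophages and monocytes, measured 39.7, 37.9 and 38.9 FPKM in N-MyoF and 6.63, 6.15 and 5.7 in M-MyoF. Basophil and mast cell proteases rose from near 0: Mcpt8 measured 0, 0.29 and 0.16 FPKM in N-MyoF and 18.7, 18.7 and 15.8 in M-MyoF. Prss34 measured 0.14, 0.27 and 0.07 FPKM in N-MyoF and 11.4, 9.31 and 10.9 in M-MyoF. Of the 12 eosinophil, basophil and mast cell markers listed 6 passed the filter, and 5 of these rose, or 2 with a pseudocount of 5. Mcpt8 and Prss34 lay under 1 FPKM in each N-MyoF library and passed the filter only through other groups. Only a rise could be called for such genes, so the count cannot be set against the 11.4% of all genes. None of 8 tested T and natural killer cell markers was called, though 2 rose and 1 fell with a pseudocount of 0.1 and 1 fell under each rescaling. The Gzma values in M-MyoF, 0.98, 0.92 and 4.91 FPKM, show library 3 apart from the other two; without it the log2 change was -1.14 and 1 member of the list fell, as 1 did without N-MyoF library 1.

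Epithelial, mesothelial and tumour-type markers moved in part. Among airway genes, Reg3g, a secreted antibacterial lectin, measured 16, 16.6 and 15.4 FPKM in N-MyoF and 123, 119.9 and 123 in M-MyoF. Scgb3a1, a further secretoglobin, measured 71.98, 69.3 and 71.7 FPKM in N-MyoF and 234, 222 and 237 in M-MyoF. The airway defence protein Bpifa1 measured 105, 97.2 and 102 FPKM in N-MyoF and 40.7, 40.3 and 41.3 in M-MyoF. In all, 4 of 11 airway genes rose and 1 fell, or 3 fell after equal sums or median-ratio scaling and 4 after quantile normalization. Of 12 alveolar epithelial genes 4 fell, against 3.24% of all genes: Ager, a receptor of the flat type I cell, measured 537, 535 and 517 FPKM in N-MyoF and 187, 190.1 and 168 in M-MyoF. The tight junction gene Cldn18 measured 55.4, 54.99 and 52.5 FPKM in N-MyoF and 17.9, 17.9 and 16.4 in M-MyoF. The type I genes Rtkn2 and Aqp5 had log2 changes of -1.36 and -1.23. Of 10 tested genes of epithelial tumour cells 2 rose, Krt8 and Krt18, against 11.4% of all genes. The list's summed FPKM was 207 to 210 in N-MyoF and 830 to 858 in M-MyoF. Krt8 measured 24.5, 20.6 and 23.9 FPKM in N-MyoF and 402, 377 and 384 in M-MyoF. Krt18 measured 25.1, 25.1 and 23.3 FPKM in N-MyoF and 292, 296 and 290.5 in M-MyoF, but Epcam averaged 5.96 ± 0.34 and 6.15 ± 0.44 FPKM and Cdh1 7.14 ± 0.25 and 5.6 ± 0.18 FPKM. Of 11 mesothelial markers 4 rose, Msln from 20.1, 20.8 and 20.5 FPKM to 72.9, 69.6 and 72.2 FPKM and Upk1b from 7.03, 7 and 7.09 FPKM to 45.5, 44.5 and 42.8 FPKM. No member of the blood endothelial list (12 tested) or the pericyte list (12 tested) was called.

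**Figure D2:**
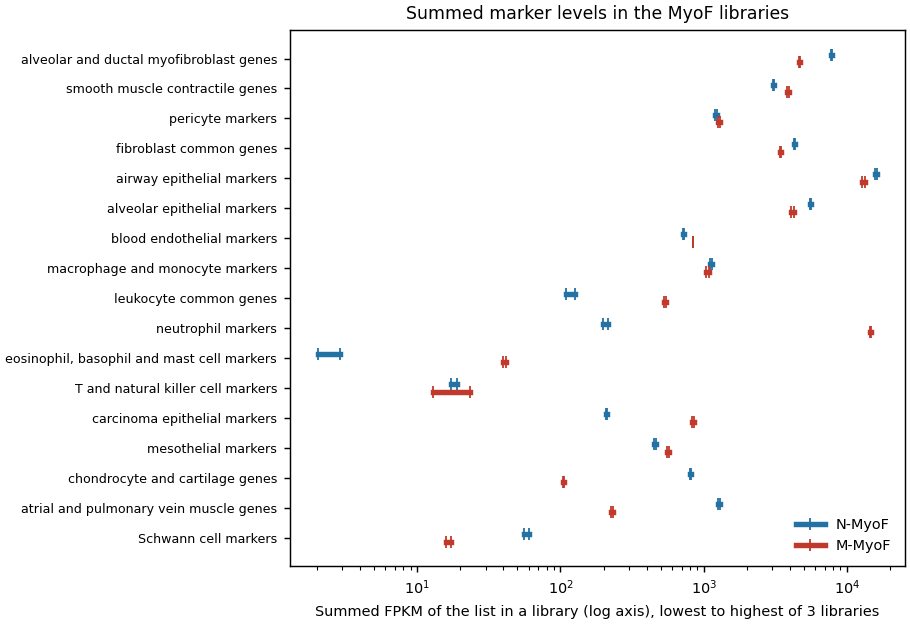
Summed FPKM of each marker list in the N-MyoF (blue) and M-MyoF (red) libraries, on a log axis; each bar runs from the lowest to the highest of 3 libraries. Neutrophil markers moved from 198 to 215 in N-MyoF to 14411 to 14744 in M-MyoF, while cartilage, atrial muscle and Schwann cell lists were lower in M-MyoF.

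Genes of cartilage, which supports the large airways, of the heart-type muscle that sheathes mouse pulmonary veins, and of nerve sheath fell. Of 18 tested chondrocyte and cartilage genes 15 fell and 0 rose, with a median log2 change of -2.51, and their sum went from 800.39 to 820.16 FPKM in N-MyoF to 104.57 to 105.37 FPKM in M-MyoF. Cytl1, a secreted protein of cartilage, measured 359, 362 and 348 FPKM in N-MyoF and 18.2, 17.9 and 18.7 in M-MyoF. Chad, which encodes the cartilage matrix protein chondroadherin, measured 210.4, 214 and 208 FPKM in N-MyoF and 15.1, 15.01 and 14.8 in M-MyoF. The collagen Col2a1 averaged 41.9 ± 0.072 and 5.93 ± 0.061 FPKM and the proteoglycan Acan 3.91 ± 0.049 and 0.207 ± 0.015 FPKM, whereas the transcription factor Sox9, which is also made outside cartilage, averaged 52.2 ± 1.7 and 42.1 ± 0.51 FPKM, a log2 change of -0.30. Atrial and pulmonary vein muscle genes fell likewise, 11 of 13 tested with a median of -2.43, and their sum went from 1267 to 1304 FPKM to 224 to 231 FPKM. Nppa, the atrial natriuretic peptide precursor, measured 96.5, 90.9 and 96.1 FPKM in N-MyoF and 7.28, 7.44 and 7.99 in M-MyoF. The atrial light chain Myl7 measured 294, 287 and 285 FPKM in N-MyoF and 29.4, 32.2 and 28.04 in M-MyoF. The cardiac troponin Tnni3 measured 85.7, 80.2 and 87.3 FPKM in N-MyoF and 8.88, 9.3 and 10.3 in M-MyoF. All 5 tested Schwann cell markers fell, with a median of -1.48, and 3 of them fell with a pseudocount of 5. Glycam1, a mucin-like ligand for L-selectin, measured 46.9, 49.1 and 43.5 FPKM in N-MyoF and was listed at 0 in each M-MyoF library. No N-MyoF value of these genes overlapped an M-MyoF value, which held for 82.2% of all genes tested. The part of cells other than fibroblasts in these falls was not tested.

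Among the genes that define myofibroblasts themselves, falls outnumbered rises. Of 16 genes of alveolar and ductal myofibroblasts 5 fell (Hhip, Fgf18, Cdh4, Mustn1 and Mapk4) and 1 rose (Actg2), with a median log2 change of -0.80; with equal sums or quantile normalization 8 fell, and with quantile normalization 0 rose. Over all genes 3.24% fell and 11.4% rose. Hhip, the decoy receptor that limits Hedgehog signalling, measured 2266, 2235 and 2190.4 FPKM in N-MyoF and 802, 785 and 774 in M-MyoF, a log2 change of -1.50 ± 0.025 (SE, adjusted p = 1.88e-14). The growth factor Fgf18 measured 18.5, 18.2 and 20.9 FPKM in N-MyoF and 5.68, 6.6 and 6.23 in M-MyoF. The cadherin Cdh4 measured 47.6, 48.05 and 47.96 FPKM in N-MyoF and 17.96, 18.3 and 18.1 in M-MyoF. Mustn1, a small nuclear protein of muscle and skeleton, measured 1013, 1035 and 1065 FPKM in N-MyoF and 416, 423 and 431 in M-MyoF. The groups did not overlap for any of these, as for 82.2% of all genes tested. Smaller differences in the same direction were seen for Lgr6, at 85.6, 82.4 and 81.8 FPKM in N-MyoF and 44.6, 44.5 and 45.1 in M-MyoF, for the autotaxin gene Enpp2, which averaged 1440.5 ± 19.8 and 859.6 ± 8.4 FPKM, and for the small proteoglycan Aspn, which averaged 1210.2 ± 10.2 and 683 ± 3.8 FPKM.

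Contractile genes moved little as a list, and the actins were higher. Acta2, which encodes smooth muscle actin, measured 640.5, 617 and 626 FPKM in N-MyoF and 953, 958 and 935 in M-MyoF, a difference of 0.59 ± 0.026 (SE, adjusted p = 2.22e-10) that is larger than the spread between libraries but under 2-fold. Tagln, encoding transgelin, measured 296, 289 and 291 FPKM in N-MyoF and 445, 436 and 437 in M-MyoF, a difference of 0.59. The visceral actin Actg2 measured 123, 121 and 124 FPKM in N-MyoF and 280.4, 281 and 283 in M-MyoF and rose by 1.19 ± 0.066 (SE, adjusted p = 2.18e-09). Myh11, the smooth muscle myosin, averaged 60.7 ± 0.95 and 59.1 ± 0.96 FPKM, and Myl9 736 ± 23 and 688 ± 22 FPKM. Of 18 contractile genes 1 rose and 2 fell (Synm, a filament linker, and Pcp4l1; 0 fell with a pseudocount of 5 and 0 rose with quantile normalization), and the list's median was 0.16, near the 0.11 of all genes. Myocd, the coactivator that drives the smooth muscle programme, went the other way, from 30.5, 29.97 and 30.1 FPKM to 14.1, 14.2 and 14.1 FPKM, and Ednrb, an endothelin receptor, measured 165, 166 and 167 FPKM in N-MyoF and 52.2, 54.4 and 52.3 in M-MyoF. Srf, the partner of Myocd, averaged 4.61 ± 0.35 and 3.69 ± 0.22 FPKM.

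**Figure D3:**
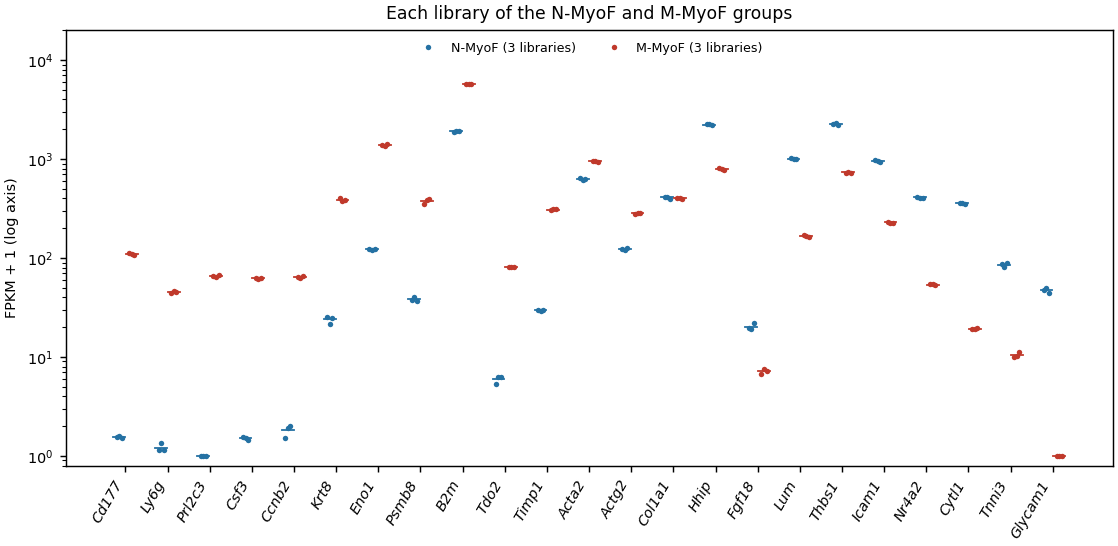
FPKM + 1 in each of the 3 N-MyoF (blue) and 3 M-MyoF (red) libraries for 23 genes named in the text, on a log axis; the short lines are group means. The libraries of a group lie close together for most genes, Col1a1 differs little between the groups, Acta2 is modestly higher in M-MyoF, and Hhip, Lum, Thbs1 and Icam1 are lower.

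The main collagen genes differed by less than 2-fold, while other matrix genes changed in either direction. Col1a1 measured 411, 417 and 396 FPKM in N-MyoF and 402, 402 and 391.62 in M-MyoF, a log2 difference of -0.034 ± 0.023 (SE, adjusted p = 0.201) by limma that came to -0.23 with equal sums, -0.20 with median-ratio scaling and -0.25 with quantile normalization. Col1a2 averaged 262 ± 3.5 and 262 ± 2.8 FPKM; Col3a1 measured 963, 969.9 and 951 FPKM in N-MyoF and 653, 659 and 648 in M-MyoF. Of 16 fibrillar and associated collagens 1 rose and 1 fell. Col6a5, a long collagen VI chain, rose and measured 0.42, 0.45 and 0.5 FPKM in N-MyoF and 13.3, 13.1 and 12.7 in M-MyoF. Col11a1, which cartilage also makes, was the one that fell and measured 4.27, 4.1 and 4.59 FPKM in N-MyoF and 0.31, 0.3 and 0.26 in M-MyoF; with a pseudocount of 5 its change lay under 2-fold and 0 of the list fell, as against 2 with quantile normalization. Small leucine-rich proteoglycans, which bind collagen fibrils and set their diameter, were lower: 4 of 12 tested fell and 0 rose, with a median of -0.80. Lum, lumican, measured 1014, 995 and 999.5 FPKM in N-MyoF and 168, 165 and 162 in M-MyoF, a log2 change of -2.60 ± 0.016 (SE, adjusted p = 5.49e-18). Fibromodulin (Fmod) measured 25.7, 24.2 and 26.01 FPKM in N-MyoF and 5.11, 4.64 and 4.84 in M-MyoF. Osteomodulin (Omd) measured 21.3, 19.9 and 21.5 FPKM in N-MyoF and 5.42, 4.26 and 5.68 in M-MyoF; Chad, named above, is the remaining one that fell. Dcn, decorin, was lower by less than 2-fold, at 856, 861 and 853 FPKM in N-MyoF and 497, 493 and 504 in M-MyoF.

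Glycoproteins of the matrix split. Thbs1, thrombospondin 1, an activator of latent TGF-beta, measured 2255, 2294 and 2227 FPKM in N-MyoF and 728, 738 and 725 in M-MyoF. Spon2, a spondin, measured 545, 567 and 529.6 FPKM in N-MyoF and 193, 193 and 182 in M-MyoF. In contrast Spp1, osteopontin, measured 44.5, 45.8 and 42.4 FPKM in N-MyoF and 840.05, 824 and 826 in M-MyoF. Fibronectin (Fn1) measured 16.9, 17.6 and 17.4 FPKM in N-MyoF and 68.99, 70.6 and 67.5 in M-MyoF. Of 20 matricellular genes 2 rose and 3 fell, Thbs3 among them. Over all genes 11.4% rose and 3.24% fell, and the rises in this list and in the elastic fibre and basement membrane lists below lay near that share. Elastic fibre genes were also divided, 3 rising and 3 falling of 17: Fbln2, a fibulin of the provisional matrix, measured 9.88, 9.37 and 9.07 FPKM in N-MyoF and 61.1, 61 and 58.2 in M-MyoF. The latent TGF-beta binding protein Ltbp1 measured 21.8, 21.99 and 20.97 FPKM in N-MyoF and 52.4, 54.8 and 53.05 in M-MyoF. Ltbp4, of the same family, fell and measured 201, 199 and 200.3 FPKM in N-MyoF and 71.98, 70.2 and 68.8 in M-MyoF. Fbln1, a further fibulin, fell and measured 221, 226 and 225 FPKM in N-MyoF and 83.8, 83.9 and 82.1 in M-MyoF. The other two called were Emilin2, with a log2 change of 2.25, and Fbln5, with -1.08. Laminin chains also differed in direction, with Lamb1 up at 18, 18.8 and 17.4 FPKM in N-MyoF and 40.8, 40.3 and 39.2 in M-MyoF. Lamb2 measured 138, 136 and 134 FPKM in N-MyoF and 67.8, 67.7 and 64.9 in M-MyoF, just past 2-fold lower, and Col4a3 was the other of 2 that fell; 0 fell with a pseudocount of 5 and 1 without M-MyoF library 3. With the rescalings or a pseudocount of 5, Lamb1 and Col18a1 lay under 2-fold, so that 1 of 18 basement membrane genes rose (Lama5) instead of 3. Elastin itself averaged 367 ± 6.8 and 259 ± 6.8 FPKM.

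Timp1, an inhibitor of metalloproteases, rose 10.4-fold, from 28.6, 28.3 and 28.97 FPKM to 304, 311 and 309 FPKM, and Timp3 averaged 488 ± 3.5 and 269 ± 3.7 FPKM, a difference under 2-fold. Mmp8 and Mmp9 are neutrophil granule enzymes and members of the neutrophil list above. Mmp8 measured 1.31, 1.25 and 1.16 FPKM in N-MyoF and 102, 105 and 101 in M-MyoF. Mmp9 measured 1.92, 1.93 and 1.77 FPKM in N-MyoF and 72.5, 75.05 and 70.5 in M-MyoF. Mmp3, a stromelysin of fibroblasts, fell, averaging 125 ± 1.9 and 44.4 ± 1.2 FPKM, as did Adamts1 and Adamts4, with log2 changes of -1.07 and -1.49. Of 18 metalloproteases and inhibitors 5 rose and 3 fell, or 5 fell under each of the 3 rescalings. Few crosslinking and hydroxylating enzymes of collagen were called: 1 of 18 fell (Loxl4, 8.31, 8.85 and 8.53 FPKM in N-MyoF and 3.31, 3.34 and 3.3 in M-MyoF; 0 with a pseudocount of 5) and 0 rose (1 without M-MyoF library 3), with a median of 0.27. Among 18 genes used to mark fibroblasts activated by tumours, 5 rose (S100a4, Fn1, Cthrc1, Timp1 and Thy1) and 3 fell (Col10a1, Col11a1 and Il6), or 3 and 1 with a pseudocount of 5. Fap averaged 1.71 ± 0.12 and 1.73 ± 0.20 FPKM and Lrrc15 5.23 ± 0.11 and 5.17 ± 0.22 FPKM. Col11a1 is also in the cartilage list given above, in which 15 of 18 tested genes fell. The part of cartilage transcripts in its fall was not tested. S100a4 is also a leukocyte gene, and the leukocyte sums given above moved in the same libraries; their part in its rise from 71.6, 69.9 and 66.4 FPKM to 493, 479.8 and 479 FPKM was not tested.

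**Figure D4:**
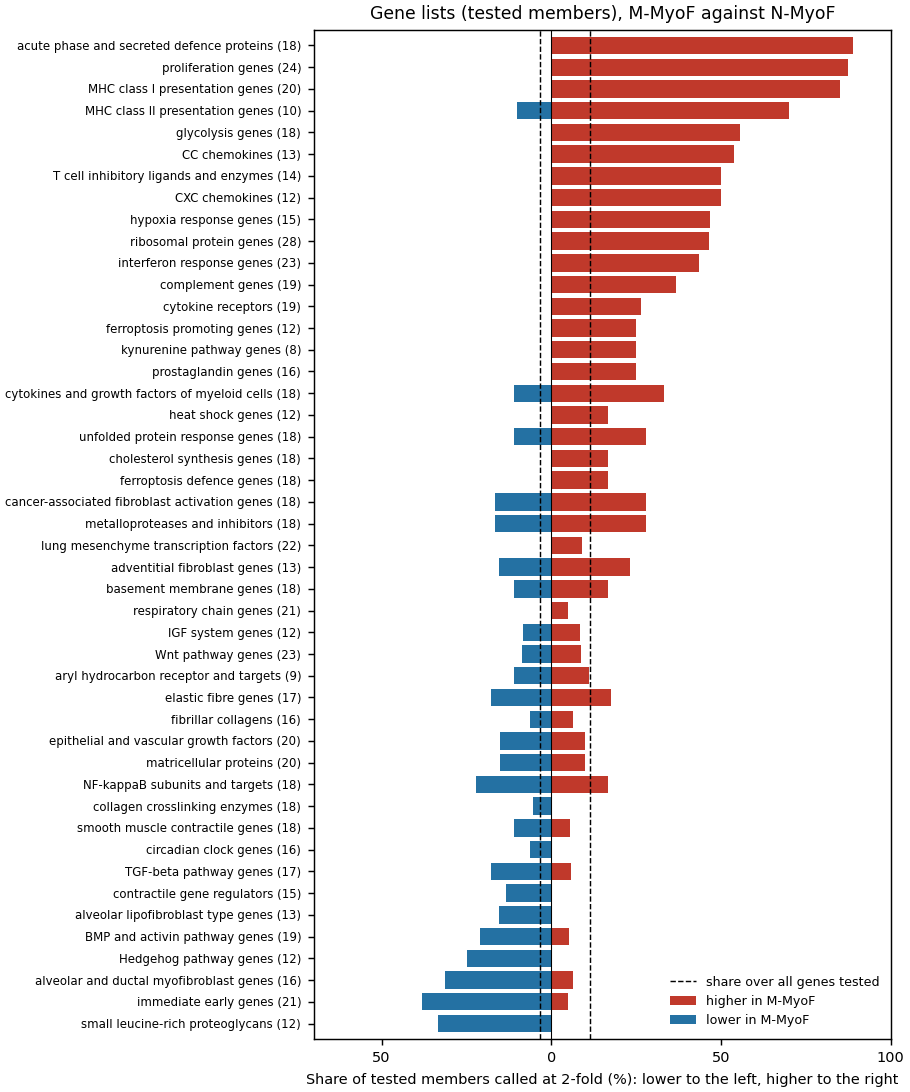
Share of the tested members of each list (number in brackets) that rose (red, to the right) or fell (blue, to the left) at 2-fold; dashed lines mark the shares over all genes tested, 11.4% and 3.24%. Acute phase, proliferation and MHC class I lists lie far to the right, and small proteoglycans, immediate early genes and myofibroblast genes to the left.

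In the Hedgehog, TGF-beta and BMP pathways, which pattern the lung mesenchyme, more genes fell than rose, while over all genes 3.24% fell and 11.4% rose. In the Hedgehog pathway, where secreted ligands bind Ptch receptors and release Smo to activate Gli factors, 3 of 12 tested genes fell and 0 rose, with a median of -0.42. They were the target and effector Gli1, at 6.6, 6.4 and 6.72 FPKM in N-MyoF and 1.75, 1.62 and 1.18 in M-MyoF, the co-receptor Boc, at 58.97, 58.4 and 55.9 FPKM in N-MyoF and 28.1, 28.8 and 27.6 in M-MyoF, and Hhip. With a pseudocount of 5, 1 of them fell, Hhip. Smo averaged 5.11 ± 0.036 and 5.29 ± 0.044 FPKM and Ptch1 5.56 ± 0.095 and 4.14 ± 0.25 FPKM. Of TGF-beta ligands, Tgfb3 measured 226, 224 and 220.4 FPKM in N-MyoF and 92.5, 90.3 and 86.3 in M-MyoF. Tgfb2 measured 33.4, 32.1 and 34.2 FPKM in N-MyoF and 16.4, 15.9 and 15.8 in M-MyoF. The corepressor Skil, a target of the pathway, measured 68.02, 68.7 and 68.8 FPKM in N-MyoF and 31.4, 29.9 and 30.6 in M-MyoF; together 3 of 17 fell and 1 rose. The receptors Tgfbr1 and Tgfbr2 averaged 12.2 ± 0.24 and 9.13 ± 0.19 FPKM and 46.4 ± 0.34 and 47.2 ± 0.47 FPKM.

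In the BMP and activin pathway 4 of 19 fell and 1 rose, or 7 fell with quantile normalization. The ligand Bmp5 measured 179, 179 and 177 FPKM in N-MyoF and 79.4, 79.1 and 76.8 in M-MyoF. Id3, an inhibitor of DNA binding induced by BMPs, measured 1945, 1917 and 1847 FPKM in N-MyoF and 848, 836 and 824 in M-MyoF. The activin antagonist Fst, follistatin, was the one that rose, at 3.33, 4.03 and 3.78 FPKM in N-MyoF and 20.7, 20.3 and 20.3 in M-MyoF. Among Wnt genes 2 of 23 rose and 2 fell, against 11.4% and 3.24% of all genes. With a pseudocount of 5, 1 rose and 1 fell, and 4 fell after equal sums or quantile normalization. The secreted inhibitor Wif1 measured 336, 326 and 325 FPKM in N-MyoF and 106, 104 and 102 in M-MyoF. The receptor Lgr5 measured 9.41, 10.2 and 10.3 FPKM in N-MyoF and 3.58, 3.96 and 3.47 in M-MyoF. Both Wnt genes that rose encode secreted inhibitors: Sfrp1 measured 3.02, 3.6 and 3.41 FPKM in N-MyoF and 13.5, 13.1 and 12.6 in M-MyoF. Sfrp2 measured 3.98, 4.27 and 4.19 FPKM in N-MyoF and 12.5, 12.4 and 11.8 in M-MyoF. Growth factors for the epithelium were divided as well. Fgf10, which supports alveolar progenitors, measured 8.73, 8.49 and 8.63 FPKM in N-MyoF and 3.68, 3.35 and 3.71 in M-MyoF. The EGF receptor ligand Areg measured 0.93, 1.08 and 0.68 FPKM in N-MyoF and 9.22, 10.5 and 10.6 in M-MyoF. The ErbB ligand Nrg1 measured 0.8, 0.67 and 0.52 FPKM in N-MyoF and 3.57, 3.08 and 3.2 in M-MyoF. Areg and Nrg1 were higher in each M-MyoF library and Fgf10 lower in each, and the groups did not overlap for 82.2% of all genes tested. Of 20 epithelial and vascular growth factors 2 rose and 3 fell (Fgf10, Fgf18 and Angpt2), against 11.4% and 3.24% of all genes. These counts were 1 and 2 with a pseudocount of 5, when Nrg1 lay under 2-fold. For Nrg1, which lay under 1 FPKM in each N-MyoF library, only a rise could be called.

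Inflammatory and host defence products rose widely. Of 18 acute phase and secreted defence proteins 16 rose and 0 fell, with a median of 2.41. Lcn2, lipocalin 2, which binds bacterial siderophores, measured 11.5, 13.8 and 13.5 FPKM in N-MyoF and 1089.9, 1145 and 1166 in M-MyoF. Saa3, an acute phase apolipoprotein, averaged 14.7 ± 1.2 and 471 ± 5.2 FPKM. The resistin-like protein Retnla measured 11.4, 14.2 and 15.8 FPKM in N-MyoF and 2223, 2292 and 2341 in M-MyoF. The protease inhibitor Slpi measured 11.3, 9.61 and 9.32 FPKM in N-MyoF and 526, 539 and 518 in M-MyoF. Chil4, a chitinase-like protein, went from 0, 0.04 and 0 FPKM to 33.3, 32.4 and 31.98 FPKM; close copies such as Chil3 can share its reads. Retnlg and Chil3 also stand in the neutrophil list, and neutrophils are known to make Lcn2; the part of the neutrophil transcripts in these rises was not tested.

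Among cytokines, Csf3, the growth factor for granulocytes, measured 0.55, 0.51 and 0.46 FPKM in N-MyoF and 62.1, 60.5 and 62.4 in M-MyoF, a log2 change of 5.38 ± 0.038 (SE, adjusted p = 1.13e-17). Tslp and Il33, alarmins of type 2 immunity, also rose: Tslp measured 7.15, 6.6 and 8.46 FPKM in N-MyoF and 67.8, 70.3 and 72.2 in M-MyoF and Il33 averaged 8.45 ± 0.61 and 27.5 ± 0.16 FPKM. Il6 went the other way, at 116, 114 and 120.0 FPKM in N-MyoF and 34.4, 33.9 and 34.99 in M-MyoF, as did Il1a, which averaged 8.84 ± 0.37 and 3.82 ± 0.54 FPKM. Il1b and Osm are mainly myeloid products, and Il1b measured 20.99, 22.99 and 21.3 FPKM in N-MyoF and 71.8, 71.5 and 71.9 in M-MyoF. Osm measured 3.53, 3.95 and 3.26 FPKM in N-MyoF and 23.3, 22.9 and 23.6 in M-MyoF. Of 18 cytokines and myeloid growth factors 6 rose and 2 fell (1 without M-MyoF library 3 or with a pseudocount of 5). The groups did not overlap for those named here, as for 82.2% of all genes tested.

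Chemokines rose in part, 6 of 12 in the CXC family and 7 of 13 in the CC family, with 0 falling in either; 4 CC genes rose after quantile normalization and 2 with a pseudocount of 5. Ccl8, an attractant of monocytes and T cells, measured 1.39, 0.9 and 0.69 FPKM in N-MyoF and 39.5, 39.9 and 42.05 in M-MyoF. The eosinophil attractant Ccl11 measured 6.91, 7.37 and 7.53 FPKM in N-MyoF and 47.6, 49.8 and 48.97 in M-MyoF. Cxcl13, which draws B cells, measured 3.96, 4.21 and 4.12 FPKM in N-MyoF and 49.2, 49.5 and 50.2 in M-MyoF. The interferon-induced Cxcl9 measured 0.2, 0.25 and 0.21 FPKM in N-MyoF and 12.1, 12.5 and 13.2 in M-MyoF. The neutrophil attractant Cxcl5 measured 0.49, 0.31 and 0.44 FPKM in N-MyoF and 8.1, 8.22 and 7.95 in M-MyoF. Among other neutrophil attractants, Cxcl1 averaged 527 ± 11 and 485 ± 6.7 FPKM, a log2 difference of -0.12, and Cxcl2 rose from 44.4 ± 3.1 to 101 ± 2.2 FPKM (mean ± SD, n = 3). Complement genes rose in 7 of 19 and fell in 0: C3 measured 56.96, 58.7 and 55.05 FPKM in N-MyoF and 444, 450.2 and 439 in M-MyoF. Factor B (Cfb) measured 13.3, 13.1 and 12.5 FPKM in N-MyoF and 64.04, 63.1 and 63.1 in M-MyoF. Cfd, adipsin, measured 5.19, 4.88 and 4.81 FPKM in N-MyoF and 142, 138 and 139 in M-MyoF. In prostaglandin synthesis the phospholipase Pla2g4a measured 3.26, 3.3 and 3.41 FPKM in N-MyoF and 18.3, 18.96 and 19.1 in M-MyoF. The E2 synthase Ptges measured 12.3, 12.1 and 12.2 FPKM in N-MyoF and 41.3, 41.4 and 41.1 in M-MyoF. Ptgs2, cyclooxygenase 2, was higher by less than 2-fold, at 20.4, 21.02 and 21.2 FPKM in N-MyoF and 39.8, 41.2 and 40.8 in M-MyoF.

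Interferon-induced and antigen presentation genes were higher. Of 23 tested interferon response genes 10 rose and 0 fell, with a median of 0.90. The guanylate-binding protein Gbp4 measured 7.44, 7.96 and 7.87 FPKM in N-MyoF and 54.9, 54.7 and 54.9 in M-MyoF. The GTPase Igtp measured 18.3, 17.9 and 17.9 FPKM in N-MyoF and 90.3, 88.9 and 92 in M-MyoF. Oas1a, an antiviral sensor of double-stranded RNA, measured 0, 0 and 0.06 FPKM in N-MyoF and 7.41, 8.9 and 8.62 in M-MyoF. Not all members followed: Ifit2 averaged 13.8 ± 0.23 and 10.8 ± 0.33 FPKM, Ifit3 16.7 ± 1.4 and 16.4 ± 1.3 FPKM and the factor Irf1 381 ± 5.99 and 283 ± 0.31 FPKM. Of the 23 genes, 19 had a RefSeq promoter (GRCm38.p6), and in the 250 bases before their first listed start 13 (68.4%) held the interferon-stimulated response element in the form TTTCNNTTTC on either strand, which 2.74% of the 10564 promoters of all tested genes hold. The gamma-activated form TTCNNNGAA, which can overlap it, stood in 8 (42.1%) against 6.10%. These matches are of letters and say nothing on binding. The Oas1a promoter is shown because that gene was at or near 0 in each N-MyoF library; capitals mark its 2 overlapping response elements.
Oas1a (chr5:120907526-120907775, minus strand): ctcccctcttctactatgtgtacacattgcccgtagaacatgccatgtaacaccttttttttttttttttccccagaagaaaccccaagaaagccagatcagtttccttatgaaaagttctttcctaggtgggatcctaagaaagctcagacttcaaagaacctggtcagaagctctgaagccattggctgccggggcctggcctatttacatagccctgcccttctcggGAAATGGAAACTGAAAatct

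MHC class I presentation was the most uniform of these lists: 17 of 20 genes rose and 0 fell, against 11.4% and 3.24% of all genes. All 20 were higher at an adjusted p under 0.05, against 49.1% of all genes, with a median of 1.62. B2m, beta-2 microglobulin, averaged 1906 ± 17 and 5705 ± 32 FPKM, and the heavy chain H2-K1 measured 728, 718 and 719 FPKM in N-MyoF and 2999.9, 2973 and 2888 in M-MyoF; reads of the H2 heavy chain genes can be split between close copies. Psmb8 and Psmb9 encode catalytic subunits of the immunoproteasome. Psmb8 measured 36.8, 39.4 and 36.1 FPKM in N-MyoF and 351, 382 and 391 in M-MyoF. Psmb9 measured 35.2, 33.9 and 33.3 FPKM in N-MyoF and 231, 233 and 224 in M-MyoF. Tap1, the peptide transporter, averaged 19.1 ± 0.63 and 72.6 ± 3.2 FPKM, and Nlrc5, the transactivator of the class I genes, 0.593 ± 0.075 and 5.48 ± 0.22 FPKM. For Nlrc5, which averaged under 1 FPKM in N-MyoF, only a rise could be called. Of MHC class II genes, which dendritic cells, macrophages and some fibroblasts make, 7 of 10 rose and 1 fell (Ctss, a lysosomal protease; its change was under 2-fold without M-MyoF library 1 and with a pseudocount of 5). Cd74, the invariant chain, measured 299, 297 and 289.7 FPKM in N-MyoF and 1163, 1132 and 1137 in M-MyoF. The class II beta chain H2-Ab1 measured 116, 116 and 110.3 FPKM in N-MyoF and 415, 429 and 407 in M-MyoF. Common leukocyte genes rose in the same libraries, and Cd86 lay below the filter. Itgax, an integrin in the macrophage and monocyte list above, measured 1.52, 1.76 and 1.38 FPKM in N-MyoF and 0.18, 0.19 and 0.24 in M-MyoF. The part of leukocytes in the class II rise was not tested. In the promoters, 8 of 17 class I genes (47.1%) held a kappaB motif, against 8.78% of all promoters, and 3 (17.6%) the response element TTTCNNTTTC. Apart from B2m, the genes with either motif were H2 heavy chain genes. These include close copies, so the shares may count the same sequence repeatedly. B2m is shown since it holds both and has no close copy; capitals mark the response element and then the kappaB motif.
B2m (chr2:122147437-122147686, plus strand): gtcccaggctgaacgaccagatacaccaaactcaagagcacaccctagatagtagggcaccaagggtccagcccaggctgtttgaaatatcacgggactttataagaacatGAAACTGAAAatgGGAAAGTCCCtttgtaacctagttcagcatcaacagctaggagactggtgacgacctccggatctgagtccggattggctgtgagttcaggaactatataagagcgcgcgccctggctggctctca

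NF-kappaB subunits and targets, a transcription factor family of inflammation and its genes, were divided. Of 18 genes 3 rose (Tnfaip2, Vcam1 and Traf1) and 4 fell (Icam1, Birc3, Nfkb1 and Nfkbiz), or 7 fell with quantile normalization, and the median was -0.61. The adhesion molecule Icam1 measured 967, 954 and 942 FPKM in N-MyoF and 230.5, 226 and 227 in M-MyoF, a log2 change of -2.06 ± 0.016 (SE, adjusted p = 2.44e-17). It was lower in each M-MyoF library than in any N-MyoF library, and the groups did not overlap for 82.2% of all genes tested. The survival factor Birc3 measured 147, 150.03 and 147 FPKM in N-MyoF and 52.2, 54.6 and 52.7 in M-MyoF. Vcam1, a related adhesion molecule, measured 32.7, 31.1 and 29.7 FPKM in N-MyoF and 72.8, 75.7 and 74.3 in M-MyoF. Nfkbia, the inhibitor that NF-kappaB itself induces, averaged 2091 ± 25 and 1312 ± 10.4 FPKM, a log2 difference of -0.67, and the feedback deubiquitinase Tnfaip3 168 ± 2.7 and 91.1 ± 1.6 FPKM. A kappaB motif stood in 8 of 14 promoters of this list (57.1%), so it was frequent in lists whose medians differ in sign. The Nfkbia promoter is shown beside that of B2m for this reason, with its kappaB motif in capitals.
Nfkbia (chr12:55492648-55492897, minus strand): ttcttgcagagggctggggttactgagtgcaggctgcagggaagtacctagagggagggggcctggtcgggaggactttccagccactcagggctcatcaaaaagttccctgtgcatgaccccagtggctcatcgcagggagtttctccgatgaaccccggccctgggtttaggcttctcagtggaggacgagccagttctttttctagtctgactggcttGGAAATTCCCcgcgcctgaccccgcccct

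Immediate early genes, which cells switch on within minutes of a stimulus or of tissue dissociation, were lower. Of 21 genes 8 fell and 1 rose, with a median of -0.94; 15 fell with equal sums or median-ratio scaling and 14 with quantile normalization. The orphan nuclear receptor Nr4a2 measured 412, 407 and 404 FPKM in N-MyoF and 53.6, 53.3 and 51.9 in M-MyoF. Its relative Nr4a1 measured 2590.5, 2550.5 and 2539 FPKM in N-MyoF and 924, 902 and 879 in M-MyoF. Egr2 measured 95.3, 96.9 and 94.6 FPKM in N-MyoF and 30.7, 29.2 and 29.5 in M-MyoF. Egr1 averaged 6971 ± 99 and 2957 ± 56 FPKM and fell, while Fos measured 7613, 7749 and 7623 FPKM in N-MyoF and 4891, 4977 and 4891 in M-MyoF and differed by less than 2-fold. Fosl1 was the one that rose, at 12.6, 11.6 and 12.4 FPKM in N-MyoF and 71.7, 64.8 and 68.9 in M-MyoF. How the samples were dissociated is not given in the sources used here.

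Cell cycle genes rose from low levels. Of 24 proliferation genes 21 rose and 0 fell, with a median of 3.69. The mitotic B cyclins stood near 1 FPKM in N-MyoF: Ccnb2 measured 0.52, 0.92 and 1.02 FPKM in N-MyoF and 63.8, 61.9 and 64.4 in M-MyoF. Ccnb1 measured 0.7, 0.51 and 0.92 FPKM in N-MyoF and 55.99, 57.4 and 58.6 in M-MyoF. Birc5, survivin, measured 1.93, 1.92 and 2.32 FPKM in N-MyoF and 71.2, 71.03 and 67.6 in M-MyoF. The mitotic kinase Aurkb measured 0.34, 0.5 and 0.64 FPKM in N-MyoF and 27.03, 27.4 and 27.9 in M-MyoF. The G1 cyclin Ccnd1 measured 4.02, 4.03 and 3.98 FPKM in N-MyoF and 115, 113 and 112 in M-MyoF. Top2a, the topoisomerase of dividing cells, averaged 0.833 ± 0.099 and 27.6 ± 0.26 FPKM, and the replication helicase subunit Mcm6 3.62 ± 0.14 and 66.2 ± 1.5 FPKM. Ccnb1, Aurkb and Top2a averaged under 1 FPKM in N-MyoF and passed the filter only through other groups. Only a rise could be called for such genes. Over all genes 11.4% rose and 3.24% fell, and the count of 21 is not evenly matched with these shares. Pcna, whose sign depends on the scaling, Mcm4 and Ccne1 were the 3 members not called, averaging 111 ± 0.85 and 122 ± 1.2 FPKM, 25.7 ± 0.37 and 37.2 ± 1.2 FPKM and 8.71 ± 0.70 and 6.1 ± 0.78 FPKM. Granule genes of neutrophil precursors (Mpo, Elane and Prtn3) and the keratins Krt8 and Krt18 rose in the same libraries, and their part in the proliferation genes' rise was not tested. The CCAAT box, ATTGG on either strand, stood in 16 of 19 promoters of the list (84.2%) against 36.8% of all promoters. Ccnb2 is shown because it holds 3 in its 250 bases, in capitals, each read as CCAAT on the strand printed.
Ccnb2 (chr9:70421555-70421804, minus strand): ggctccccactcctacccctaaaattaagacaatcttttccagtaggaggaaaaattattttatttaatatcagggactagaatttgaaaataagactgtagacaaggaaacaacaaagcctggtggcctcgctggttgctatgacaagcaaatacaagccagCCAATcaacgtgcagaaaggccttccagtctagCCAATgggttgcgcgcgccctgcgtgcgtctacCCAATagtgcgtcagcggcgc

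Genes of growth and metabolism were higher in several lists, beside 11.4% of all genes that rose and 3.24% that fell. Of 18 glycolysis genes 10 rose and 0 fell, with a median of 1.27: the enolase Eno1 measured 122, 119 and 123 FPKM in N-MyoF and 1397, 1351 and 1409 in M-MyoF. Phosphoglycerate kinase Pgk1 measured 44.7, 44.6 and 43.1 FPKM in N-MyoF and 272, 269 and 265 in M-MyoF. Pyruvate kinase Pkm measured 272, 283 and 262 FPKM in N-MyoF and 1297, 1274 and 1221 in M-MyoF. Gapdh measured 654, 642 and 624 FPKM in N-MyoF and 2586, 2534 and 2493 in M-MyoF. Each M-MyoF value of these enzymes lay above each N-MyoF value, and the groups did not overlap for 82.2% of all genes tested. Close processed copies of some of them exist, and reads could be split. Pfkm, the muscle phosphofructokinase, was lower, averaging 30.4 ± 0.40 and 16.7 ± 0.90 FPKM. Of 15 hypoxia response genes 7 rose: Ndrg1 measured 41.3, 41.8 and 39.6 FPKM in N-MyoF and 275, 274 and 275 in M-MyoF. Carbonic anhydrase 9 (Car9) measured 0.35, 0.51 and 0.44 FPKM in N-MyoF and 9.8, 9.58 and 9.63 in M-MyoF, and from so low a level only a rise could be called. Vegfa averaged 2.49 ± 0.25 and 2.32 ± 0.16 FPKM and Adm 90.6 ± 3.1 and 63.1 ± 0.79 FPKM. All 28 ribosomal protein genes were higher at an adjusted p under 0.05, against 49.1% of all genes, with a median of 0.86. With the deposited scale 13 passed 2-fold, against 11.4% of all genes. That number was 6 with equal sums or median-ratio scaling and 4 with quantile normalization. Endoplasmic reticulum chaperones and their regulators rose in 5 of 18 and fell in 2. Trib3, a stress pseudokinase, measured 2.5, 2.69 and 2.71 FPKM in N-MyoF and 36.3, 35.4 and 33.1 in M-MyoF. The secreted folding factor Manf measured 53.01, 56.8 and 57.1 FPKM in N-MyoF and 205, 214 and 227 in M-MyoF. Atf3, a stress factor and immediate early gene, fell and measured 1291, 1272 and 1268 FPKM in N-MyoF and 581, 569 and 572 in M-MyoF. Squalene epoxidase (Sqle), an enzyme of cholesterol synthesis, measured 6.43, 6.55 and 7.05 FPKM in N-MyoF and 25.7, 25.7 and 24.8 in M-MyoF. In that pathway 3 of 18 genes rose, which is near the 11.4% of all genes. The count was 1 under each of the rescalings and 5 with a pseudocount of 0.1.

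The series is titled for tryptophan 2,3-dioxygenase, Tdo2, which opens the kynurenine pathway from tryptophan. Tdo2 (chromosome 3, 81958412 to 81975728) measured 4.32, 5.31 and 5.22 FPKM in N-MyoF and 80.1, 80.9 and 79.8 in M-MyoF, a log2 change of 3.78 ± 0.056 (SE, adjusted p = 7.02e-15). Ido1, an enzyme of the same step, measured 0.11, 0.23 and 0.08 FPKM in N-MyoF and 3.66, 3.86 and 3.74 in M-MyoF. Ido2 measured 0.38, 0.29 and 0.51 FPKM in N-MyoF and 1.31, 1.41 and 1.67 in M-MyoF. All 8 tested members of the pathway were higher at an adjusted p under 0.05, against 49.1% of all genes. By 2-fold 2 rose, Tdo2 and Ido1, against 11.4% of all genes. Ido1 and Ido2 lay under 1 FPKM in each N-MyoF library and passed the filter only through other groups. They had little room to be lower and could not be called as 2-fold falls, so these counts and shares are not evenly matched. Kmo, Kynu, Haao, Aadat and Acmsd were below the filter. With a pseudocount of 5, Tdo2 alone passed, and with one of 0.1, 4 members did. Of 18 genes that defend cells against ferroptosis, a death by lipid peroxidation, 3 rose, against 11.4% of all genes, and 1 did with a pseudocount of 5. The desaturase Scd1 measured 13.4, 14.8 and 13.3 FPKM in N-MyoF and 50.2, 50.4 and 51.6 in M-MyoF. Glutathione reductase Gsr measured 2.41, 2.7 and 2.82 FPKM in N-MyoF and 7.87, 8.13 and 7.67 in M-MyoF. The cystine carrier Slc7a11 measured 0.58, 0.64 and 0.66 FPKM in N-MyoF and 2.58, 2.57 and 2.49 in M-MyoF. For Slc7a11, at under 1 FPKM in each N-MyoF library, only a rise could be called. The lipid peroxide reductase Gpx4 measured 401, 381 and 417 FPKM in N-MyoF and 684, 623 and 672 in M-MyoF, a difference under 2-fold. Of 12 genes that promote it 3 rose as well, among them Acsl4, which loads polyunsaturated fatty acids into phospholipids, at 7.8, 7.95 and 7.39 FPKM in N-MyoF and 28.9, 28.5 and 29 in M-MyoF. Of 14 genes whose products restrain T cells 7 rose and 0 fell: galectin 1 (Lgals1) measured 488, 494 and 499.6 FPKM in N-MyoF and 3539, 3583 and 3605 in M-MyoF. Galectin 3 (Lgals3) measured 87.8, 83.8 and 84.2 FPKM in N-MyoF and 417, 408 and 403 in M-MyoF. The 5'-nucleotidase Nt5e, which makes adenosine, measured 11.9, 12.5 and 11.8 FPKM in N-MyoF and 48.7, 47.1 and 45.6 in M-MyoF. Nitric oxide synthase Nos2 measured 0.59, 0.67 and 0.37 FPKM in N-MyoF and 12, 11.3 and 11.7 in M-MyoF. Cd274, the ligand PD-L1, measured 3.27, 3.46 and 3.63 FPKM in N-MyoF and 12.2, 11.7 and 12.1 in M-MyoF.

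The same comparison in matrix fibroblasts shares no library with this one, so the effects can be set against each other. In M-MF against N-MF 1240 genes rose (9.32%) and 338 fell (2.54%). The genes that rose in both numbered 831, 55.0% of those of MyoF and 67.0% of those of MF, and 126 fell in both, 29.2% and 37.3%; 8 went in opposite directions. The difference between the effects, tested gene by gene as an interaction, was at least 2-fold at an adjusted p under 0.05 for 944 genes (7.1%), 435 with the higher change in MyoF (3.27%) and 509 with the lower (3.83%).

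Neutrophil markers changed more in MyoF: 19 of 21 had a change at least 2-fold higher than in MF and 1, Chil3, a lower one; their sum in MF went from 58.8 to 66.5 FPKM to 773 to 789 FPKM. For Ifitm6 the change exceeded that in MF by 5.66 ± 0.19 (SE, adjusted p = 8.78e-11), and for Ly6g by 4.89 ± 0.11 (SE, adjusted p = 2.43e-12). Of 10 common leukocyte genes 9 had the higher change in MyoF. Cartilage genes were lower in the MyoF effect for 16 of 18; the N-MF libraries held a sum of 109 to 113 FPKM of them and the M-MF libraries 65.5 to 67.6 FPKM. Tdo2 changed more in MF, by 7.62 on the log2 scale, and its difference was -3.84 ± 0.079 (SE, adjusted p = 1.02e-12). The mesothelial genes Lrrn4 and Upk3b, with differences of -3.98 ± 0.064 (SE, adjusted p = 1.17e-13) and -3.92 ± 0.097 (SE, adjusted p = 5.24e-12), and Car4, a carbonic anhydrase of alveolar capillaries, with -4.47 ± 0.037 (SE, adjusted p = 1.06e-15), also changed more in MF. For the contractile genes the differences were smaller: Acta2 differed by -1.10 ± 0.037 (SE, adjusted p = 8.35e-11). Of 24 proliferation genes 1 differed by 2-fold upward and 1 downward, and of 20 MHC class I genes 0 differed by 2-fold. In the myofibroblast list Enpp2 had log2 changes of -0.74 in MyoF and 1.12 in MF, a difference of -1.86 ± 0.022 (SE, adjusted p = 1.11e-14). Among fibroblast products with the higher change in MyoF were Fbln2, at 2.55 against -0.14, Igfbp4, at 1.86 against 0.018, and Fst, at 2.19 against -0.25, each as a log2 change in MyoF against that in MF; these 3 were picked after their values were seen.

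**Figure D5:**
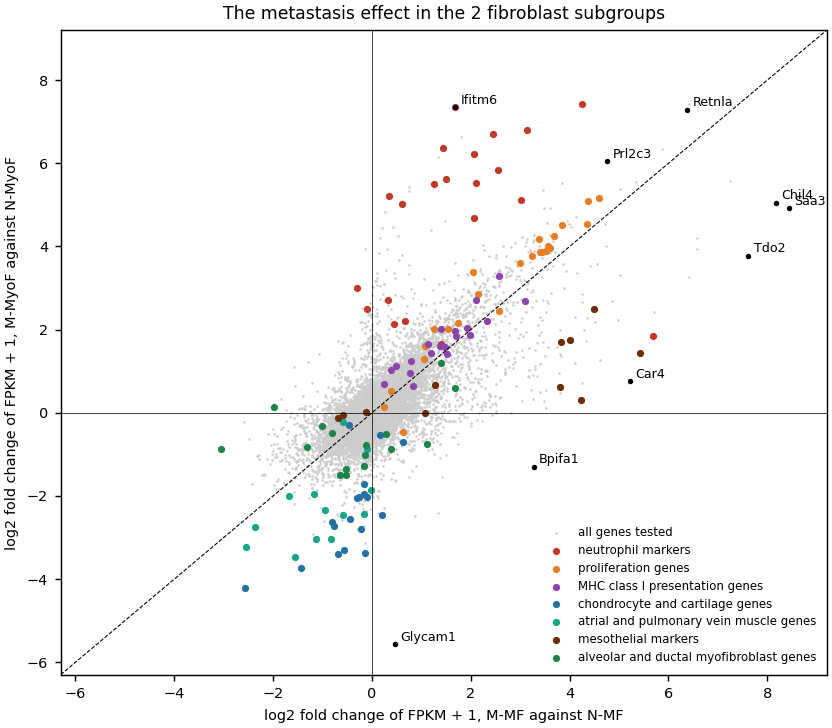
The log2 fold change of each tested gene in MF (horizontal axis) and in MyoF (vertical axis), with 7 lists coloured; the dashed line marks equal changes. Neutrophil markers lie above the line and cartilage genes below it, proliferation and MHC class I genes lie along it, and Tdo2, Car4 and mesothelial genes lie to its right.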

How the data were processed

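RNA from fibroblasts was copied by a SMART-seq2 method from polyA RNA extracted with Trizol and made into libraries with a transposon, per the labels' protocols. The authors deposited 1 table of FPKM values for 20606 genes and 12 libraries, to 2 decimals; the build was GRCm38, per the submitters' processing notes. No aligner, counter or annotation is given in the sources used here. No counts were used, so depth was estimated from FPKM steps. Linear models were fitted with limma 3.58.1 (R 4.3.3) to log2(FPKM + 1), with 4 group means and a mean-variance trend, and Benjamini-Hochberg adjustment covered all 13300 genes tested. The 64 gene lists (901 distinct genes tested, 67 below the filter, 6 not in the table) and the comparison were chosen with earlier results of these data known. Genes were named by rule: the 15 largest changes in each direction, the 8 largest differences between subgroups in each direction and up to 5 per list; other list members named were chosen after their values were seen. Replicate numbers come from the sample titles. On 1830 genes, deviations from group means of same-numbered libraries correlated at 0.482 to 0.796 in 18 pairs of libraries, and those of other pairs at -0.683 to 0.38, so the numbers pair the libraries; what they mark is not stated in the labels. Promoters were read from RefSeq (GRCm38.p6). Alternatives were other pseudocounts, filters and scalings, a replicate block and left-out libraries. The fit was tested on simulated data.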

Additional observations from a re-analysis of the deposited data

Results flagged for a closer look

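The change from normal to metastasis differed between myofibroblasts and matrix fibroblasts, by a test of the difference of the log2 changes (an interaction contrast in limma), for 18 genes named by rule. The change in myofibroblasts exceeded that in matrix fibroblasts by 5.66 for Ifitm6, 4.93 for Stfa2, 4.89 for Ly6g, 4.84 for Cstdc5, 4.81 for Cd177, 4.68 for Cstdc4, 4.60 for Cstdc6 and 4.56 for Stfa3, which are genes of neutrophils or of the stefin cluster. Reads can be split among close copies within that cluster, and Cstdc6 was listed at 0 in each normal library of either subgroup. Ptprc differed by 1.28 in the same direction.

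The change in myofibroblasts was the lower one by -6.04 for Glycam1, -4.56 for Bpifa1, -4.47 for Car4, -3.98 for Lrrn4, -3.92 for Upk3b, -3.85 for Chil3, -3.84 for Tdo2, -3.76 for Ear1 and -1.10 for Acta2. Glycam1 was listed at 0 in each M-MyoF and each N-MF library. Bpifa1 went in opposite directions, from 101 ± 3.8 to 40.8 ± 0.47 FPKM in myofibroblasts and up by 3.27 on the log2 scale in matrix fibroblasts. Ear1 also went in opposite directions, with a log2 change of -2.42 in myofibroblasts and an upward change in matrix fibroblasts. For Tdo2, Car4, Lrrn4, Upk3b, Chil3 and Acta2 both changes were upward. All 18 differences passed an adjusted p under 0.05 (limma, Benjamini-Hochberg over 13300 genes).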

How the results depend on the processing

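The 1510 rises and 431 falls came to 881 and 191 with a pseudocount of 5 (1072 in all) and the falls to 705 with a pseudocount of 0.1, 647 with equal sums and 751 with quantile normalization; without any minimum fold, 6404 genes were lower with quantile normalization, against 4205. The 944 differences between subgroups came to 1448 with a pseudocount of 0.1 and 456 with 5. Leaving out 1 library at a time gave 1504 to 1519 rises and 424 to 444 falls. The replicate block gave 1514 rises and 431 falls, 946 differences, and 6606 higher and 4282 lower genes at any fold, and moved no list count by over 1.5 times. The block also brought Col1a1 (-0.03) and Pdgfra (0.06) past an adjusted p under 0.05 in limma, both far under 2-fold, and changed the side of no other gene named. Signs reversed after quantile normalization for Cldn3 (-0.082, from 0.19) and Pdpn (-0.033, from 0.24), and for Pcna, from 0.14 to -0.052 with equal sums, -0.022 with median-ratio scaling and -0.18 with quantile normalization. The cause of these shifts was not tested beyond the change of scale itself. Of list counts recomputed with a library left out, 18 moved by over 1.5 times and 1646 did not. Depth limits genes near 1 FPKM, where the pseudocount sets the size of the fold, and FPKM without counts gives no counting interval for single genes.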

Other observations

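A few further groups are given by their values, beside 11.4% of all genes rising and 3.24% falling. Of 19 cytokine receptors 5 rose and 0 fell (1 with equal sums or quantile normalization): the interleukin 1 decoy receptor Il1r2 measured 5.51, 5.73 and 5.63 FPKM in N-MyoF and 143, 148 and 142 in M-MyoF, and the interleukin 13 receptor chains Il13ra1 and Il13ra2 had log2 changes of 1.63 and 1.57. In the insulin-like growth factor system Igfbp4 measured 189, 182 and 184 FPKM in N-MyoF and 678, 673 and 668 in M-MyoF, whereas Igfbp5 measured 269, 263 and 263 FPKM in N-MyoF and 94.8, 93.8 and 92.95 in M-MyoF. Runx2 and Twist1, transcription factors of skeletal and activated mesenchyme, had changes of 1.86 and 1.03, and 2 of 22 lung mesenchyme factors rose (0 with a pseudocount of 5, 1 under each rescaling and 1 without M-MyoF library 3) and 0 fell. The mitochondrial chaperones Hspd1 and Hspe1 had log2 changes of 1.45 and 1.35, while the other 10 heat shock genes tested were not called with the deposited scale. Among targets of the aryl hydrocarbon receptor, which kynurenine binds, Cyp1b1 measured 3.72, 3.69 and 3.98 FPKM in N-MyoF and 19.8, 19.4 and 19.7 in M-MyoF and Cyp1a1 averaged 1.71 ± 0.17 and 1.22 ± 0.10 FPKM. Adventitial fibroblast genes were divided: Ly6a had a change of 1.48 and Ccl11 of 2.59, but Dpt of -1.41 and Has1 of -1.43.

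The libraries numbered 3 differed from numbers 1 and 2 of their group in a few genes. Of 6861 genes with a mean of at least 5 FPKM in every group, 9 differed in the same direction by at least 0.5 on the log2 scale in all 4 groups, 5 lower in number 3 (Rpl31-ps12, Gm7429, Kap, Trim14 and 1 unnamed locus) and 4 higher, among them Hnrnpa3. Hba-a1, an alpha globin gene, made up 28.62%, 31.50% and 57.44% of the FPKM of Hba-a1 and Hba-a2 in N-MyoF libraries 1 to 3 and 31.50%, 32.72% and 60.73% in M-MyoF. The summed FPKM of the pair was 6814, 6963 and 6886 in N-MyoF and 3375, 3448 and 3425 in M-MyoF. The whole-gene counts without the libraries numbered 3 were 1520 rising and 433 falling.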
